A study of Mus musculus with 4 samples.

Results

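The skeletal myosin heavy chain cluster on mouse chromosome 11 holds the genes Myh3, Myh2, Myh1, Myh4, Myh8 and Myh13, in that order and all on the plus strand. CTCF binding there was read from ChIP-seq of heart, the protein being pulled down with an antibody and the bound DNA sequenced. Members were the peak summits of the authors' conservative list from the start of Myh3 to the end of Myh13, with 100 kb added on each side. On mm10 this interval is chr11:66978300-67471586, 493 kb long, and it held 22 of the 54309 summits of that list. The hearts came from B6CASTF1/J female mice aged 2 months, with no treatment and no other genotype in the series; the tissue was frozen. They were combined in 2 pools, G and H, each of 2 heart biosamples and sequenced as 2 technical libraries. Both pools carry the same donor entry in the labels, and whether they share animals is not told. The control alignments were not analysed here. The peak lists carry no read totals, so depth is unknown, and nothing in them can check the tissue itself. Signal below means the value deposited for each peak, which comes without a unit. Levels are compared within a list. Values of the pools are printed side by side, and their ratio is read only against that of all peaks.

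Myosin heavy chains are the motor proteins of the thick filament, and this cluster supplies the isoforms of skeletal muscle. Myh3 encodes the embryonic and Myh8 the perinatal chain, Myh2, Myh1 and Myh4 the chains of adult fast fibres, and Myh13 the chain of extraocular muscle. The chambers of the heart use Myh6 and Myh7, which lie on another chromosome. CTCF is a zinc-finger protein that binds a long asymmetric motif and, with cohesin, anchors chromatin loops. The direction of its motif is known to matter for loops, whose anchors often carry motifs that point towards each other.

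The sites are numbered 1 to 22 along the chromosome. Sequences are shown for all 9 sites within the cluster, and for sites 2, 6 and 18, the strongest outside it, because the results turn on where these sites lie and which way their motif points. Each is 60 bases of the reference genome (GRCm38.p6, mm10), read 5′ to 3′ along the strand of the motif. The reference is of a single strain, and bases at which alleles of these mice differ from it were not examined. Capitals mark the best match to the 12-base CTCF core within 100 bases of the summit, with at most 1 mismatch.
Site 2, before Myh3, chr11:66985020-66985079, minus strand: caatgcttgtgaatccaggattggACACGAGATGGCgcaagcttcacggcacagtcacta
Site 6, before Myh3, chr11:67024934-67024993, plus strand: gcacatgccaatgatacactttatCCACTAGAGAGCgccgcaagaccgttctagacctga
Site 9, Myh3, chr11:67080378-67080437, minus strand: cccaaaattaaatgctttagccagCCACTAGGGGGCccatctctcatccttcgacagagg
Site 10, Myh3, chr11:67085590-67085649, minus strand: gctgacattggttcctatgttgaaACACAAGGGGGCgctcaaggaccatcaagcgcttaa
Site 11, Myh3, chr11:67100346-67100405, minus strand: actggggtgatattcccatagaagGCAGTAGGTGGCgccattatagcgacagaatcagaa
Site 12, Myh3, chr11:67101846-67101905, minus strand: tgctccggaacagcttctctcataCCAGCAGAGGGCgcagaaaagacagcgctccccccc
Site 13, after Myh3, chr11:67110379-67110438, plus strand: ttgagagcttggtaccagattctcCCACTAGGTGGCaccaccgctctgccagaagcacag
Site 14, after Myh3, chr11:67112160-67112219, minus strand: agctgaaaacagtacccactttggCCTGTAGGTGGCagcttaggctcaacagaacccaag
Site 15, after Myh3, chr11:67112921-67112980, plus strand: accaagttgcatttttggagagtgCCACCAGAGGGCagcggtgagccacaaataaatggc
Site 16, before Myh4, chr11:67235804-67235863, minus strand: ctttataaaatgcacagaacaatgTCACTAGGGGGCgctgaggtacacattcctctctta
Site 17, Myh13, chr11:67350561-67350620, minus strand: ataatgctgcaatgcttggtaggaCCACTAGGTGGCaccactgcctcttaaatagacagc
Site 18, after Myh13, chr11:67373458-67373517, plus strand: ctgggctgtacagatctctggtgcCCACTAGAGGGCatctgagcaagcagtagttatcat
Sites 13 and 17, the strongest of the interval, carried the same core word, CCACTAGGTGGC. On chromosome 11 that word occurred 43 times, and a summit lay within 100 bases of 37 of the copies (86.0%), sites 13 and 17 included.

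Binding was dense and strong around Myh3 and sparse over the adult fast genes. The bodies of Myh3 and Myh13 held 4 sites and 1 site, and those of Myh2, Myh1, Myh4 and Myh8 held none. Among all protein-coding genes 50.9% had a summit in the body. Of the remaining sites, 3 lay between Myh3 and Myh2, 1 lay between Myh1 and Myh4, 8 lay before Myh3 and 5 after Myh13. Over the 6 genes and the spaces between them this made 9 sites, or 3.07 per 100 kb, against 3.29 over chromosome 11 and 2.06 over autosomes and X. With the flanks the density was 4.46 per 100 kb. Consecutive windows of the same length on autosomes and X held a median of 8 summits, and of 5093 windows 86.0% held fewer than 22 and 714 held at least that many.

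**Figure D1:**
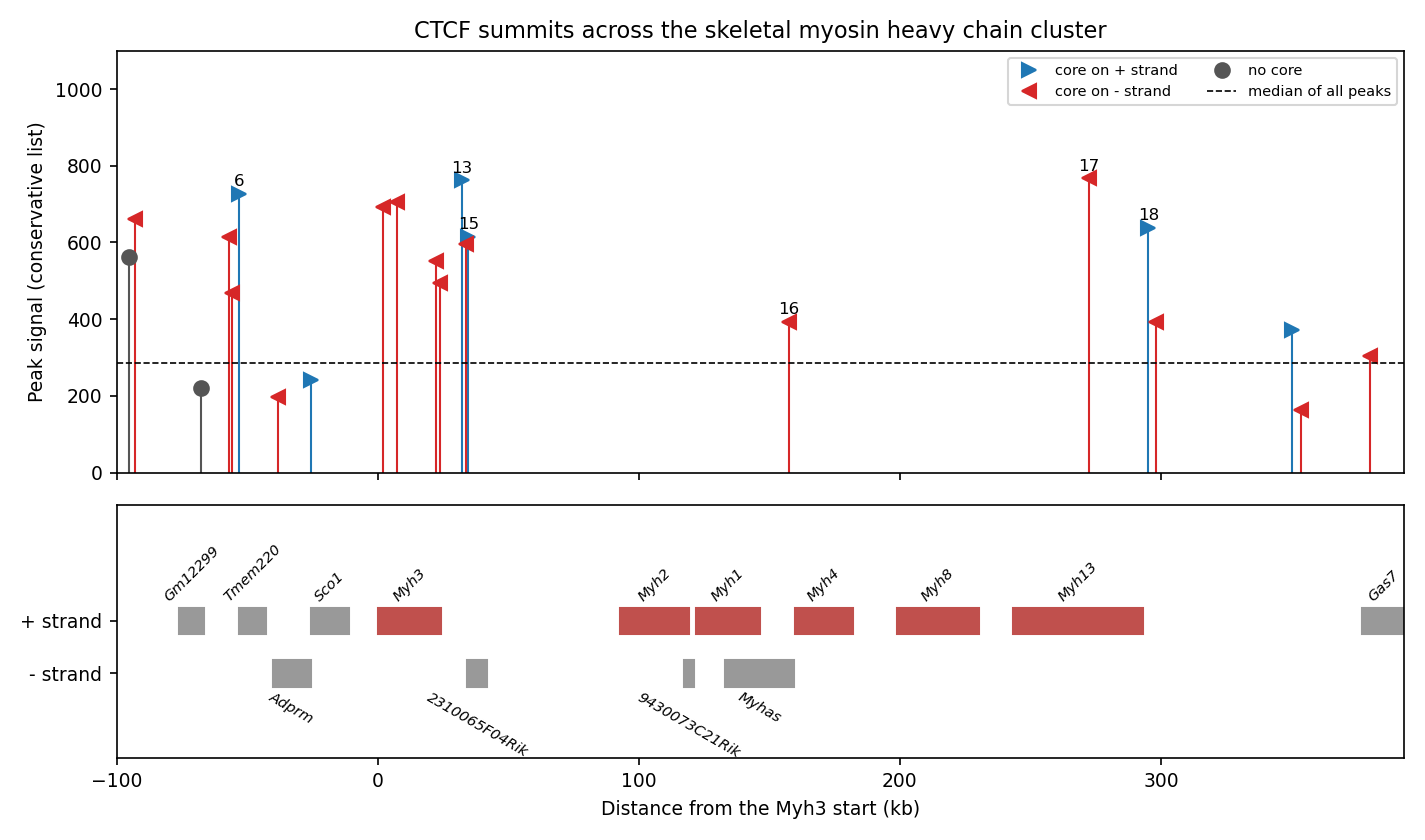
Peak signal in the conservative list (vertical axis, no stated unit) of the 22 summits against distance from the start of Myh3 in kb, with the genes below, the myosin genes in red. Arrowheads give the strand of the core, circles mark sites without one, and the dashed line is the list's median of 286. The 7 sites from Myh3 to the start of the long empty stretch stand close together, and a single summit (site 16) lies between sites 15 and 17.

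Signals in the interval were high for the list. The lowest was 162, the median 557 and the highest 767, while the median over all peaks was 286. Above that median stood 18 of the 22 sites, where 50% of all peaks lie above it by definition, and 3 sites (6, 13 and 17) stood in the top 10% of the list. Of the 3208 windows with at least 5 summits, 96.0% had a lower median signal. The 9 sites within the cluster had a median of 615 and the 13 in the flanks one of 393. Neither difference was tested, since peaks are not replicates.

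Myh3, the embryonic chain, was the member with the most CTCF. Site 9 lay 2.11 kb downstream of its start, in intron 2, at a signal of 692, with 357 in pool G and 338 in pool H. Site 10 lay in intron 9 at 705, with 363 in pool G and 346 in pool H. Towards the end of the gene, site 11 stood in intron 35 at 553, with 306 and 250 in pools G and H, and site 12 in intron 39 at 495, with 297 and 196. These introns are those of a transcript of 40 exons. In both pools the pair near the start was stronger than the pair near the end. All 4 cores lay on the minus strand, against the direction of transcription. Among 3122 protein-coding genes within 25% of the length of Myh3, 127 (4.07%) had at least 4 summits in the body and 1313 (42.1%) had none. Myh2, Myh1, Myh4 and Myh8 had no summit in the body. The share of genes of like length without one was 40.1% for Myh2, 41.1% for Myh1, 44.0% for Myh4 and 36.2% for Myh8. An empty body was thus common at these lengths, and a body with 4 summits was not. At the length of Myh13, which had 1 summit in the body, 73.1% of 2365 genes had at least 1.

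Beyond the end of Myh3 a group of 3 sites followed within 3 kb of each other. Site 13, at 32.1 kb from the Myh3 start and outside any annotated gene, had a signal of 762, with 407 in pool G and 352 in pool H. Site 14 had 597, with 317 in pool G and 279 in pool H. Site 15 had 615, with 326 and 293, and lay in the last exon of 2310065F04Rik, the long noncoding RNA gene known as linc-MYH that is transcribed from the minus strand. Their cores pointed plus, minus and plus. Every one of the 3 was therefore turned against its neighbour, while the 4 sites in Myh3 all pointed one way.

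The next summit lay 123 kb further on, and this stretch enclosed Myh2 and Myh1 whole, the genes of the IIA and IIX fibre types. Site 16 ended it, between Myh1 and Myh4 and in an intron of Myhas, an antisense RNA gene that also overlaps the body of Myh1, at -2.19 kb from the start of Myh4. Its signal was 393, with 220 in pool G and 174 in pool H. Another empty stretch, of 115 kb, led from site 16 to site 17 and enclosed Myh4, the gene of the IIB type, and Myh8 whole. Of the 54289 distances between consecutive summits on autosomes and X, 92.4% were shorter than the former stretch and 91.8% shorter than the latter, and the median was 16.6 kb. Both were thus among the longer spacings of the list, and together they made up 81.0% of the 293 kb from the start of Myh3 to the end of Myh13.

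**Figure D2:**
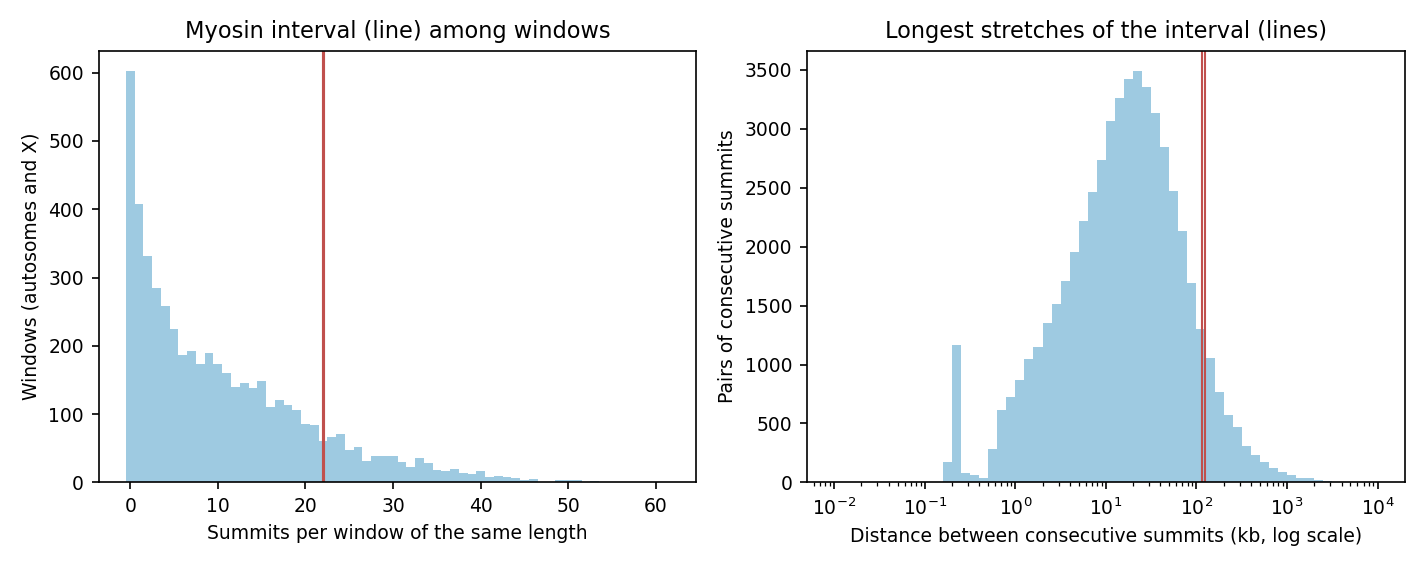
Left, number of windows of 493 kb (vertical axis) by summits per window, with the myosin interval at 22 marked by a line. Right, number of pairs of consecutive summits by their distance in kb on a log scale, with lines at 115 and 123 kb. The interval lies above the median window of 8 summits, and both stretches lie right of the median distance of 16.6 kb.

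Candidate peaks below the authors' threshold did not fill these stretches. The list matched between pools, which has no threshold, held 24 further candidates in the interval, with a median signal of 19.9 and a highest one of 71.3. Each long stretch held 1 of them. The one in Myh2 had a signal of 16.9, with 7.74 in pool G and 8.10 in pool H, and the one in front of Myh8 had 19.6, with 11.7 and 6.80. The weakest site of the conservative list in the interval had 162, so these candidates were far below it. A second list of both pools added 4 sites to the interval, all in the flanks, with signals from 51.8 to 71.3.

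The members of the cluster resemble each other, so reads from them may be hard to place. Of all positions on chromosome 11 taken at every 1000th base, 88.6% began a 32-base word that occurs once in the genome assembly. The share was 90.5% in the stretch over Myh2 and Myh1 and 94.8% in the one over Myh4 and Myh8. Coding exons were less distinct, with 64.1% in Myh2, 63.8% in Myh1, 72.3% in Myh4 and 69.5% in Myh8, against 89.9% in Myh3 and 87.7% in Myh13. Neither read length nor mapping rules are known here, and the part of placement in the missing summits was not tested. Within 150 bases of the summit the share was 100% at 19 of the 22 sites and 82.1% at the lowest, site 5.

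Myh13 carried the strongest site of the interval. Site 17 stood in its intron 21 with a signal of 767, above 95.2% of all peaks, with 406 in the ranked pool G list and 365 in pool H. Past the end of the gene, site 18 had a signal of 639, with 344 in pool G and 300 in pool H, and site 19, 3.02 kb further, had 393, with 223 and 171. Sites 18 and 19 pointed towards each other and site 17 away from site 18. Then followed 51.9 kb without a summit up to site 20, which had a signal of 371, with 192 in pool G and 182 in pool H. Site 21, the weakest of all, had 162, with 90.3 and 71.8. Site 22, within Gas7, had 304, with 171 and 129. Gas7, a gene first described in growth-arrested cells, is the next coding gene after the cluster.

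Before Myh3, the sites lay among genes of other families. Site 6 was the strongest of these 8 with a signal of 727, with 378 in pool G and 348 in pool H. It lay at -0.193 kb from the start of Tmem220, which encodes a membrane protein. Upstream of that start and within 4 kb of it, site 4 had 614, with 336 in pool G and 275 in pool H, and site 5 had 469, with 261 and 204. The promoter of Tmem220 thus had a row of 3 sites in front of it, their cores pointing minus, minus and plus. Site 8 lay between the starts of Adprm and Sco1, at -0.028 kb from the former and -0.048 kb from the latter, with a signal of 241, and with 145 in pool G and 93.2 in pool H. Adprm encodes a hydrolase of ADP-ribose compounds, and Sco1 a copper chaperone of mitochondrial cytochrome c oxidase, and they are transcribed away from each other. Site 7 had a signal of 197, with 107 in pool G and 91.2 in pool H. It lay in intron 4 of Adprm, 0.516 kb downstream of another annotated start of that gene. At the far edge, site 1 had 561, with 308 and 252, and site 2 had 660, with 340 and 321. Site 3, in an exon of the noncoding Gm12299, had 221, with 130 and 90.1. Sites 1 and 2 therefore lay within the range of the 4 sites of Myh3, and sites 3, 7 and 8 were weak in both pools. The 3 genes with a summit within 1 kb of a start in this flank, Tmem220, Adprm and Sco1, are listed here because the myosins themselves had none.

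None of the 6 myosin genes had a summit within 1 kb of an annotated start, while 34.6% of the 21938 protein-coding genes had one. Candidates below the threshold lay 0.349 and 0.595 kb downstream of the Myh3 start, with signals of 15.7 and 13.4. The candidate of 19.6 in front of Myh8 was also within 1 kb of a start. The share of all coding genes with such a candidate is not given here. The nearest summits were 2.11 kb downstream for Myh3 and at -2.19 kb for Myh4, and these 2 genes had a summit within 5 kb. For Myh2 the nearest summit lay at -58.1 kb, for Myh8 at -41.3 kb and for Myh1 35.4 kb downstream, beyond its end. Myh13 has annotated starts far apart, and the nearest summit was 8.69 kb downstream of the last and 28.9 kb from the 5′ end of the gene. At up to 1 mismatch, the CTCF core was in none of the 6 promoter sequences in RefSeq (250 bases before to 50 after the start, GRCm38.p6). Only 8.38% of 32851 such promoters held it on either strand, so its absence does not set these 6 apart. With 6 genes in a single cluster, these counts describe the locus and were not tested.

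Of the 22 sites, 20 had the core with at most 1 mismatch, against 66% of all peaks in the list, and 11 an exact core, against 33%. A weight matrix learned on the other chromosomes found the motif at 15 sites, against 47.7% of all peaks, always on the strand given by the core. From summit to core centre the median distance was 8 bases. The distance was greatest, 57.5 bases, at site 12, and the core lay at -49.5 bases at the Adprm and Sco1 promoter, where the matrix found no motif. Sites 1 and 3 had no core. Site 1, with a signal of 561, nevertheless stood above 84.7% of the 18463 peaks of the list that lacked it.

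The motif pointed to the minus strand more often than to the plus strand, with 14 sites against 6. Over the whole list 49.9% of cores were on the plus strand. Of the 19 pairs of consecutive cores 6 were convergent, 6 divergent and 7 tandem, while the list had 24.1% convergent, 24.1% divergent and 51.8% tandem pairs. Convergent and divergent pairs alternate along a chromosome, so their numbers are nearly equal by construction. The minus-strand cores of sites 9 to 12 alone gave 3 of the 7 tandem pairs. The stretch over Myh2 and Myh1 was flanked by a convergent pair, plus at site 15 and minus at site 16. In the list, 32.4% of the 5567 pairs 100 to 1000 kb apart were convergent. The stretch over Myh4 and Myh8 was flanked by minus-strand cores on both sides. Strand is a feature of the sequence, and no contact between sites was measured here.

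The long stretches over Myh2, Myh1, Myh4 and Myh8 are spaces between consecutive summits, so copies of the motif in them were unoccupied by construction. The number of copies there is not free of that choice either, since a stretch chosen to hold no summit leaves out every occupied copy. The interval held 21 exact cores, of which 11 had a summit within 100 bases, or 52.4% against 24.9% of the 5714 copies on chromosome 11. A single word, that of site 5, made up 4065 of those 5714 copies, and 14.8% of its copies were occupied. In the interval this word was found at site 5 alone among the sites, and at 8 of the 12 unoccupied exact or matrix copies. The part of word composition in the difference in occupancy was not tested. By the matrix the interval held 20 copies, of which 15 were occupied, or 75% against 40.9%. The stretch over Myh2 and Myh1 held 1 exact core and 2 matrix copies, all unoccupied, or 0.815 and 1.63 per 100 kb. The stretch over Myh4 and Myh8 held none of either kind. Chromosome 11 had 4.68 exact cores and 3.89 matrix copies per 100 kb. With up to 1 mismatch in the core, the stretch over Myh2 and Myh1 held 25 copies, or 20.4 per 100 kb, and the one over Myh4 and Myh8 held 10, or 8.73 per 100 kb. By that definition the interval had 22.5 and chromosome 11 had 27.6 copies per 100 kb, of which 19.8% and 9.03% were occupied. The 3 unoccupied exact or matrix copies of the stretch over Myh2 and Myh1 are shown for comparison with the occupied ones, with the 12 core positions in capitals.
Copy between Myh3 and Myh2, chr11:67137498-67137557, plus strand: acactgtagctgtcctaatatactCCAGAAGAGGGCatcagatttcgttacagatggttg
Copy in a Myh2 exon, chr11:67191670-67191729, plus strand: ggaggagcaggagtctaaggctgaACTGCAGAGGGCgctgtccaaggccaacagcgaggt
Copy in a Myh2 intron, chr11:67196901-67196960, minus strand: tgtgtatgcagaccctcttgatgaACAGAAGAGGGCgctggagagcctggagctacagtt
The copy between Myh3 and Myh2 lay in soft-masked sequence and had the word CCAGAAGAGGGC. On chromosome 11 this word occurred 4065 times and 14.8% of the copies were occupied. The copy in the Myh2 exon lay in coding exon 30 and matched the matrix but differed from the core at 2 positions. The copy in the Myh2 intron, which also lies in an exon of the antisense gene 9430073C21Rik, had the candidate peak of signal 16.9 beside it.

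Of all 12 unoccupied exact or matrix copies in the interval, 10 lay in soft-masked sequence and 8 had the word CCAGAAGAGGGC. The same word was occupied at site 5, in front of Tmem220, with a signal of 469, and there 95.5% of the bases around the summit were soft-masked. The words at the other sites were occupied on chromosome 11 at widely differing shares, and strong sites had words of high and of low occupancy. These counts include the sites themselves, so the only occupied copy of the word of site 2 is that site. CCACTAGGGGGC of site 9 was occupied at 33 of 39 copies, CCACCAGAGGGC of sites 15 and 22 at 43 of 51, and CCACTAGAGGGC of site 18 at 41 of 47. Other strong sites had words that were mostly unoccupied. CCACTAGAGAGC of site 6 was occupied at 3 of 12 copies, ACACGAGATGGC of site 2 at 1 of 4, CCACAAGGTGGC of site 4 at 31 of 90 and ACACAAGGGGGC of site 10 at 6 of 13. Site 22, which shares its word with site 15, had a signal of 304 against 615 there. Site 7, one of the weakest with 197, had CCAGAAGAGGGT, occupied at 36 of 810 copies.

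**Figure D3:**
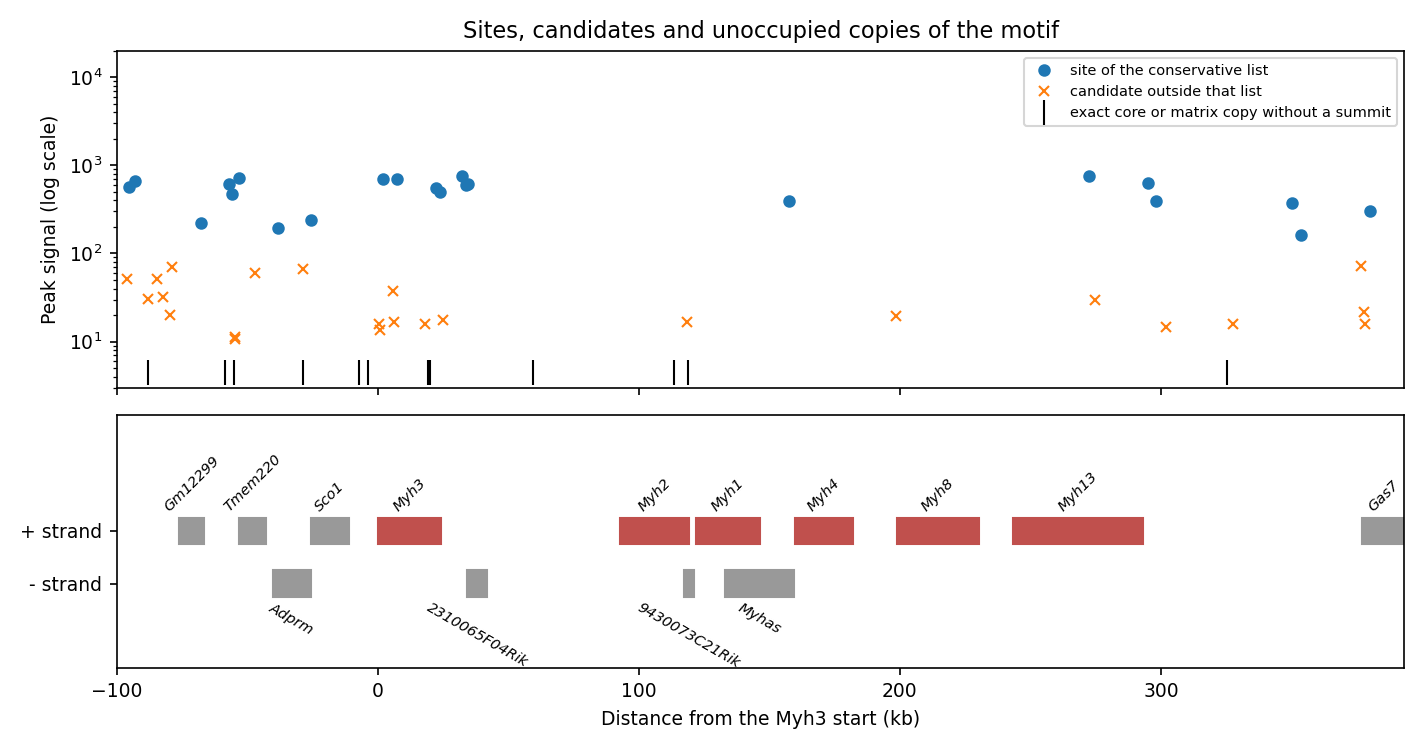
Signal on a log scale of the 22 sites (dots) and of the 24 candidates outside the conservative list (crosses) against distance from the Myh3 start in kb, with ticks for the 12 unoccupied exact cores or matrix copies and the genes below. The candidates reach at most 71.3, and between sites 15 and 17 the ticks all lie left of Myh1.

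Nearly all sites of the cluster were found in each pool's own list. All 22 sites were in the pool H list and 21 in the pool G list, where 87.9% and 90.5% of all conservative peaks had a counterpart within 100 bp. The list was itself selected for agreement between pools, so this is no independent check. All 22 also had the highest scaled IDR score of the conservative list, 1000, as did 93.6% of its peaks. The signal in pool G was 1.20 times that in pool H at the median site, with a range from 1.05 to 1.55, and over 53538 peaks of the list the median was 1.23. Every site lay between the 5th and the 95th percentile of that ratio in the list, 1.03 and 1.69. Across the 22 sites pool G and pool H signals went together, with rho (Spearman) at 0.988 and r (Pearson, log2 scale) at 0.981, which describes sites that share libraries.

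**Figure D4:**
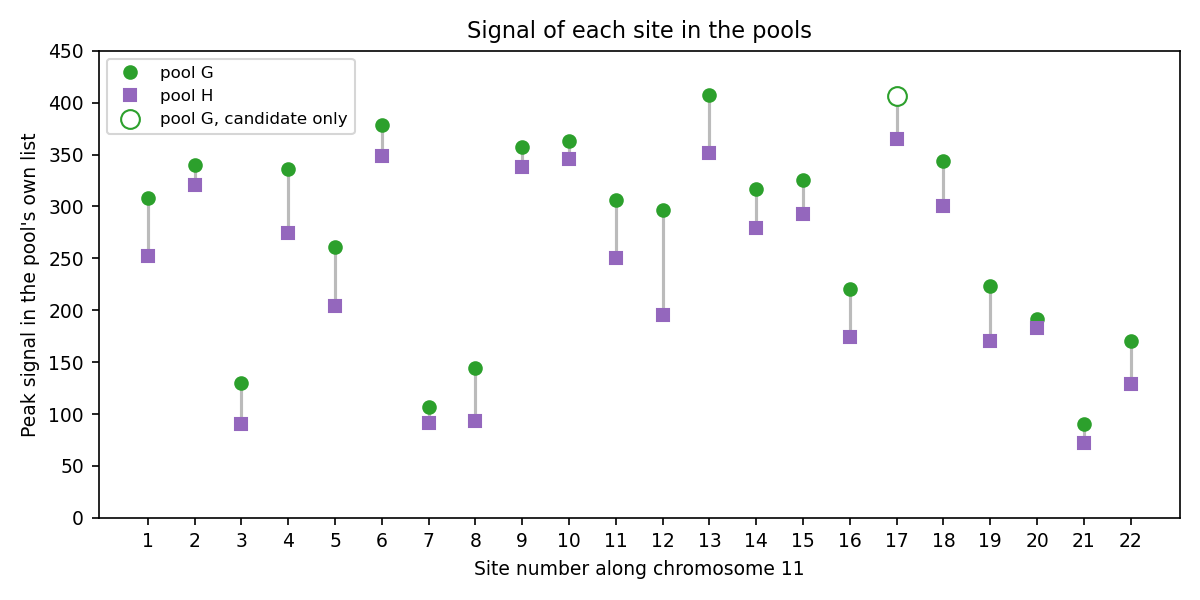
Signal of each site in the lists of pool G (circles) and pool H (squares), by site number along chromosome 11, with a line joining the pools. Pool G is above pool H at all 22 sites, while the median ratio of pool G to pool H over the list is 1.23. Site 17 (open circle) was only a candidate in pool G.

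The exception was site 17 in Myh13, the strongest of all. It was missing from the pool G list although its signal there, 406, was the next highest of the interval in that pool. In the ranked list of pool G its scaled IDR, a measure of how well its rank agreed between call sets, was 310, below the 540 that the thresholded lists require, and in pool H it was 957. Of the 2608 conservative peaks at least as strong, 766 (29.4%) had no counterpart in the pool G list and 707 (27.1%) none in pool H. Without site 17 the empty stretch after site 16 grows to 138 kb in the pool G list and reaches site 18, and takes in Myh13.

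Other genes of muscle had promoter summits at varying shares, to be read against the 34.6% of all coding genes. Of the other myosin heavy chain genes 4 of 8 had one, namely Myh11 of smooth muscle (637), Myh14 (283), Myh10 (71.3) and Myh9 (69.6) of nonmuscle cells, while Myh6, Myh7, Myh7b and Myh15 had none. Among fast fibre genes it was 4 of 12, with Mylpf, a fast regulatory light chain, at 612 and Tnnt3, the fast troponin T, at 557. Pvalb, the calcium buffer parvalbumin, reached 218 and Ryr1, the calcium release channel of skeletal muscle, 135. Of the slow fibre and shared cardiac genes 5 of 8 had one, led by Tnnt1, the slow troponin T, at 818 and Myl2 at 673. Atp2a2 (259), Mybpc1 (228) and Tpm3 (65.7) followed. These shares lie on both sides of the background, and no list was tested.

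Set beside 3 other gene clusters by the same rule, the skeletal myosin interval had the highest median signal and the highest share of sites with the core. The cardiac pair Myh6 and Myh7 had 12 summits, 4.75 per 100 kb, with a median signal of 489 and the core at 10 of them. The type I keratin cluster on chromosome 11 had 41, or 3.31 per 100 kb, with a median of 462 and the core at 31. The type II keratin cluster on chromosome 15 had 44, or 4.97 per 100 kb, with a median of 316 and the core at 27. Keratins, filament proteins of epithelia, also form clusters with empty stretches, the longest being 431 kb in the type I and 130 kb in the type II cluster. In the cardiac pair it was 62.1 kb. Minus-strand cores outnumbered plus-strand cores by 14 to 6 in the skeletal interval and by 7 to 3 in the cardiac pair. In the keratin clusters they stood at 16 to 15 (type I) and 14 to 13 (type II). These differences were not tested, and the intervals hold different numbers of sites.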

How the data were processed

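CTCF ChIP-seq peak lists from heart were used, 7 of the 8 deposited, on mm10 per the labels. Lists were assigned to pools from the readme texts of the samples. The authors deposited peak signal as a score that has no unit, and a scaled IDR score in which 540 stands for 0.05 and 830 for 0.01. Neither the aligner nor the caller is given in the sources used here. In the list matched between pools, 71.7% of first members were identical to pool H records and 77.3% of second members to pool G records, with 0 crosswise.

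The members and gene lists were chosen with earlier results of these data known. A summit was the peak start plus its offset, placed on GENCODE M21 and GRCm38.p6. The core search took the match with fewest mismatches, then the one nearest the summit. The matrix was learned from 7913 exact cores outside soft-masked sequence, with 4 flanking bases and 3 rounds of refitting, at the score exceeded by 1% of windows 1 kb away. Named genes were the members, genes in the interval near a summit, and fixed list members with a promoter summit. The result of 1 fixed list is not reported here. Word occupancy, unoccupied copies, sequence identity, unique 32-base words and RefSeq promoters were examined after the sites had been seen. Scripts were tested on simulated data. No test across the 2 pools was made. Calculations used pandas 2.3.3 and numpy 2.4.6 with scipy 1.17.1, and figures matplotlib 3.10.9, under Python 3.11.15.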

Additional observations from a re-analysis of the deposited data

How the results depend on the processing

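Of the alternative values, 8 moved and 49 stayed within 1.5 times the count given or within the 95% order-statistic interval of a median. With flanks of 50 kb the interval held 13 summits and with 200 kb 28. These intervals differ in length, and the density and window rank given above are those with flanks of 100 kb. The median signal was 250 to 302 in the lists of single pools, which lie on another scale, and 1.85 to 1.99 times the list's own median there, against 1.95 times in the conservative list. With the exact core 11 sites carried the motif. With promoters of 5 kb, 2 of the 6 myosin genes and 11 of the fast fibre genes had a summit, while the share of all coding genes rose to 53.8%. Of the 8 other myosin heavy chain genes, 3 had a promoter summit in the pool H list and 2 in the pool G list. The shares of all coding genes in these lists were 32.8% and 34.4%. At an IDR of 0.01 all 22 sites were left. No paired analysis was possible because the numbers shared by the pools mark technical libraries and no comparison between pools was tested. Leaving out a single library could not be done, since the lists join the libraries of a pool, and unknown depth limits what a missing summit means.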

Other observations

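Sites of the interval differed in sequence outside the core. Along 36 bases centred on the core, the most alike were sites 13 and 17, beyond Myh3 and in Myh13, with 23 identical bases (63.9%), followed by sites 12 and 22 and by sites 7 and 21 with 22 each. Sites 7 and 21 were also the weakest of the interval, at 197 and 162, and 69.7% and 52.7% of the bases within 100 of their summits were soft-masked. Candidates below the threshold stood beside some unoccupied exact cores, such as the one with a signal of 30.1 at -88.3 kb from the Myh3 start and the one of 66.2 at -28.8 kb, in Adprm, which the second list of both pools includes.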
